A study of Mus musculus with 4 samples.

Results

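The mesenchymal miRNAs followed here in mouse plasma were 8 mature products of the miR-199, miR-214, miR-143 and miR-145a hairpins: mmu-miR-199a-5p, mmu-miR-199a-3p, mmu-miR-199b-3p, mmu-miR-199b-5p, mmu-miR-214-3p, mmu-miR-143-3p, mmu-miR-145a-5p and mmu-miR-145a-3p. They were chosen by name, as miRNAs known from fibroblasts and smooth muscle. The count table listed them in 7 of its 921 miRNA entries, because mmu-miR-199a-3p and mmu-miR-199b-3p share a single entry, written below as miR-199a/b-3p. All 7 passed the filter on low counts, as did 772 entries in all. The other arms of the same hairpins (miR-214-5p and miR-143-5p) and miR-145b, a close relative of miR-145a-5p, were followed beside them.

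The plasma came from male C57BL/6 mice aged 8 weeks by the study's methods, 2 libraries after acute myocardial infarction (AMI) and 2 after Sham surgery. In AMI mice the left anterior descending coronary artery was permanently ligated, and Sham mice had the same surgery without ligation. The time of blood collection for sequencing, and whether the libraries of one group came from separate or pooled mice, were not stated in the sources used here, so the p-values measure only the spread between libraries, which may be technical. Counts were of unique molecular identifiers (UMIs), random tags that let PCR copies of one molecule be counted once, and levels are given in CPM (UMI counts relative to the library total, scaled between libraries by TMM factors).

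MiRNAs are cut in steps from a hairpin, and each hairpin yields a 5p arm and a 3p arm, of which usually one is kept in the silencing complex while the other is largely degraded. Mir199a-2 and Mir214 are made from one long non-coding transcript, Dnm3os, which is driven by TWIST1 in mesenchymal cells, and miR-199a and miR-214 are known from fibroblasts and from the remodelling heart. Mir143 and Mir145a are also made from one transcript, are most abundant in vascular and visceral smooth muscle, and are induced there by serum response factor with myocardin.

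The mature sequences below show why the 3p products of miR-199 had one entry and how the Dnm3os miRNAs are related. They are from RefSeq (GRCm38.p6), which matched 4 of the 8 names, and are written 5′ to 3′ with the seed (bases 2 to 8, the part that pairs with target mRNAs) in capitals. mmu-miR-199b-5p, mmu-miR-143-3p, mmu-miR-145a-5p and mmu-miR-145a-3p are named only.
mmu-miR-199a-5p: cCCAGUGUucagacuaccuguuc
mmu-miR-199a-3p: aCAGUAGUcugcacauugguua
mmu-miR-199b-3p: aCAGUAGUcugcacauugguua
mmu-miR-214-3p: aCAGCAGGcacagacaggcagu
mmu-miR-214-5p: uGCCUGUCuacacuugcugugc
The 3p products of miR-199a and miR-199b were identical over all 22 bases, so their UMIs cannot be assigned to a hairpin. The seeds of miR-199a-3p and miR-214-3p shared 5 of 7 bases, and those of miR-199a-5p and miR-214-5p shared 1 of 7. Among 1679 mature miRNA names with a sequence, the seed of miR-214-3p was found also in miR-761 (not analysed here). That of miR-199a-5p was found in no other of these names. The search did not cover miR-199b-5p, its near copy, which had no sequence there, so it cannot show whether they share a seed.

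In GRCm38 (GENCODE M21), all miR-199 and miR-214 hairpins lay antisense to introns of dynamin genes. Mir199a-2 (chr1:162217814-162217923, plus strand) and Mir214 (chr1:162223368-162223477, plus strand) were 5444 bases apart in exons of Dnm3os, antisense to an intron of Dnm3. Mir199a-1 (chr9:21496495-21496564, minus strand) was antisense to an intron of Dnm2, and Mir199b (chr2:32318460-32318569, plus strand) to an intron of Dnm1. miR-199a-5p is thus made from a pair of hairpins, one of them outside Dnm3os, and miR-199a/b-3p from all 3, whereas miR-214-3p comes from Dnm3os alone.

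Mir143 (chr18:61649196-61649258) and Mir145a (chr18:61647825-61647894) lay 1301 bases apart on the minus strand, outside the exons and introns of any other gene in this annotation. Mir143, the nearer of them, was 366 bases beyond the end of the non-coding Carmn. Mir145b lay far from both on the same chromosome (chr18:69022199-69022273).

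The total UMI counts were 9016139 for AMI 1 and 11461361 for AMI 2, and 7460687 for Sham 1 and 4842247 for Sham 2. The smallest count among the 7 entries was 300 UMIs (miR-145a-3p in Sham 2), and among the other arms and miR-145b it was 20. Cardiomyocyte miRNAs (miR-1a-3p, miR-133a-3p, miR-208a-3p and miR-499-5p) summed to 86330 and 97278 CPM in AMI plasma and 11366 and 5817 CPM in Sham plasma, and all 4 were higher by the test. Most of each sum came from miR-1a-3p and miR-133a-3p (26245 and 58666 CPM in AMI 1). The study describes both as abundant in skeletal muscle as well as in the heart. A list of 3 hepatocyte miRNAs summed to 67986 and 96088 CPM in AMI and 5867 and 17444 CPM in Sham plasma, with 3 of 3 higher. Of the platelet list 0 of 9 tested members passed in edgeR (3 at an unadjusted p under 0.05, 3 in DESeq2), with sums of 76199 and 90503 CPM in AMI and 80608 and 95694 CPM in Sham plasma. Of 7 erythrocyte miRNAs 0 passed in edgeR (1 at an unadjusted p under 0.05, 1 in DESeq2), with sums of 384360 and 428230 CPM in AMI and 399220 and 220490 CPM in Sham plasma. Most of each sum was miR-16-5p, which was higher in both AMI libraries (log2 fold change 0.74, edgeR adjusted p = 0.233). miR-451a was lower in both (−1.26, 0.0536), and the others overlapped between the groups. The 2 endothelial miRNAs were the arms of miR-126a, and both were also counted in the platelet list. Of these 2, 0 passed in edgeR (0 at an unadjusted p under 0.05, 0 in DESeq2). They summed to 9132 and 11634 CPM in AMI and 15472 and 13703 CPM in Sham plasma. Over all 772 entries tested, 14.8% were higher and 12.7% lower in edgeR. Of these 772, 303 were at an unadjusted p under 0.05 in edgeR and 251 passed in DESeq2. The platelet marker miR-197-3p had no entry in the count table. No other listed marker was at 0 in any library, and the part of these cell types in the results below was not tested. Plasma RNA is a mixture released from many tissues, in which the number of cells of a type and the RNA that each releases cannot be told apart.

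**Figure D1:**
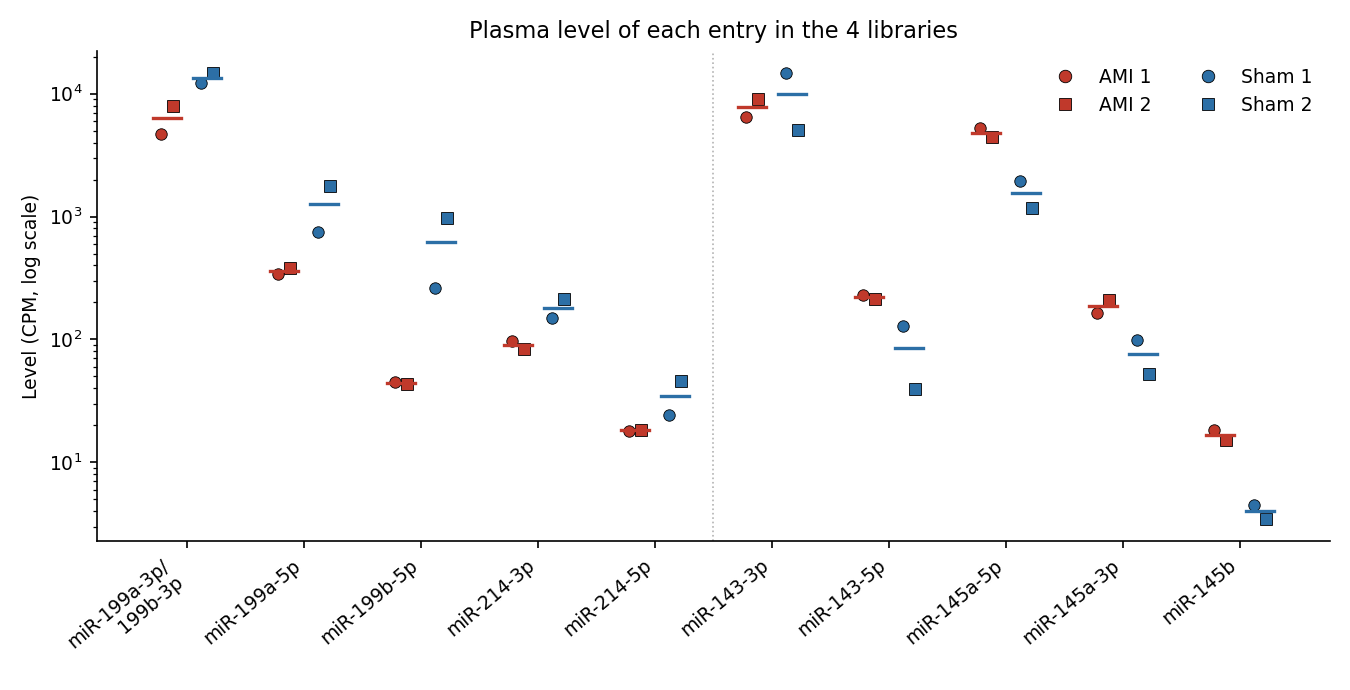
Level of each entry (CPM, log axis) in AMI 1 and AMI 2 (red) and Sham 1 and Sham 2 (blue), with circles for replicate 1, squares for replicate 2 and horizontal lines for the group means. The miR-199 and miR-214 entries, left of the dotted line, were lower in both AMI libraries, whereas right of it the AMI points lay above the Sham points for every entry but miR-143-3p.

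The 5p arms of miR-199 and both arms of miR-145a differed between AMI and Sham plasma in opposite directions. By edgeR's quasi-likelihood test, with Benjamini-Hochberg adjustment over all 772 entries and a threshold of 0.05, miR-199a-5p and miR-199b-5p fell and miR-145a-5p and miR-145a-3p rose in AMI plasma. Thus 4 of the 7 entries passed, against 27.5% of all entries tested, with 2 of 7 higher (14.8% of all entries) and 2 of 7 lower (12.7%). DESeq2, run as an alternative, called 6 of the 7 and 251 of all 772. The AMI and Sham libraries did not overlap for 6 of the 7 entries, against 65.4% of all entries. The median log2 fold change was −1.45 over the 4 miR-199 and miR-214 entries and 1.30 over the 3 miR-143 and miR-145a entries, beside 0.04 over all entries tested. The median of 1.30 is set by miR-145a, which has both its arms among those entries, while miR-143-3p was at −0.34.

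**Figure D2:**
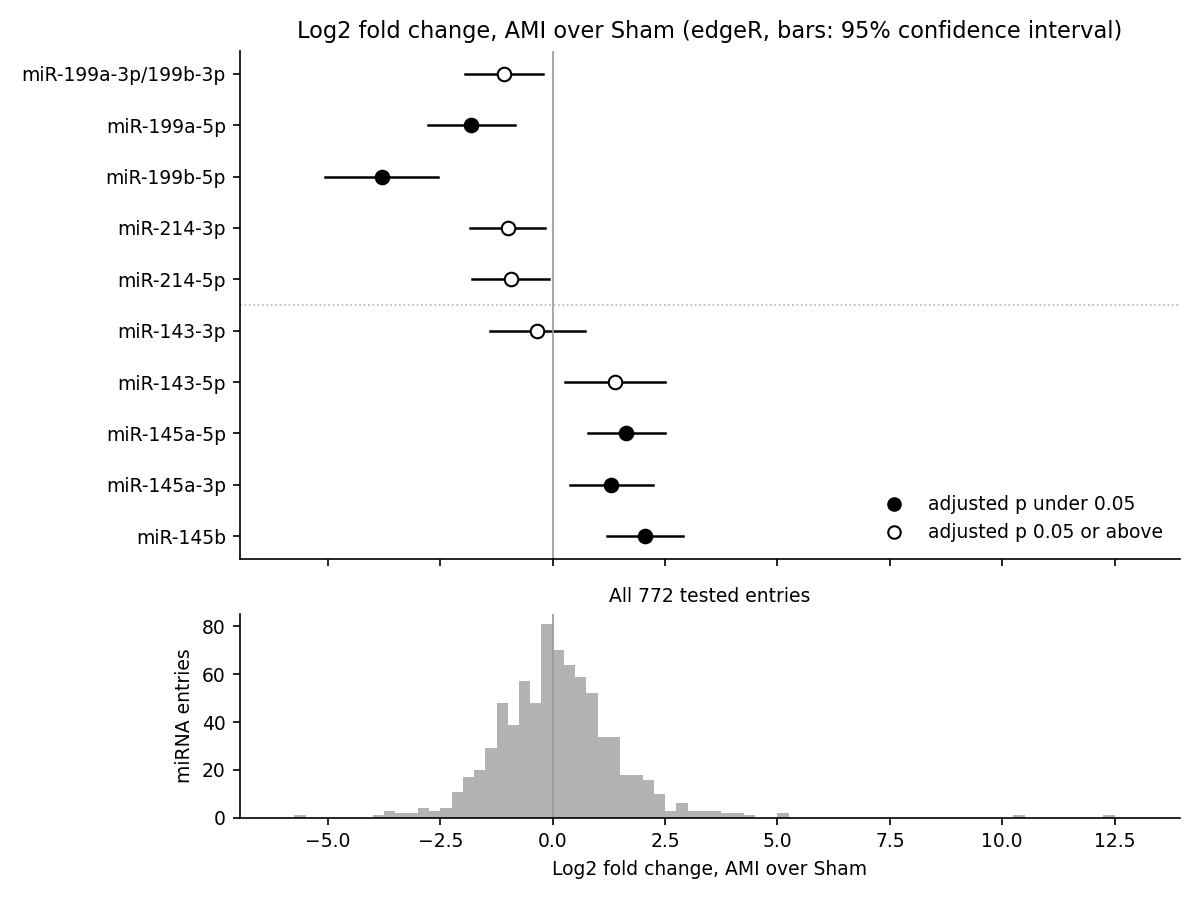
Top, log2 fold change of AMI over Sham for each entry, with the 95% confidence interval from edgeR as a bar and a filled point where the adjusted p was under 0.05. Bottom, the number of miRNA entries at each log2 fold change over all 772 tested. miR-199b-5p, at −3.81, lay in the left tail, and only miR-143-3p had an interval that spans 0.

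The 5p arms of miR-199 had the lowest fold changes of the 7 entries. miR-199b-5p, from the hairpin antisense to Dnm1, was at 45.1 and 43.2 CPM in AMI plasma and at 261 and 975 CPM in Sham plasma. The AMI libraries were nearly equal and far below both Sham libraries, which themselves differed by several fold. Its log2 fold change was −3.81 ± 0.58 (SE, edgeR adjusted p = 0.000880), a level in AMI plasma 0.0714 of that in Sham plasma, and 1 of the 772 entries (miR-196a-5p) had a lower value. The call held under each of 15 alternatives, with values of −4.47 to −2.59 and adjusted p of at most 0.00435, the highest value being that without Sham 2.

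miR-199a-5p was at 339 and 382 CPM in AMI plasma and at 754 and 1779 CPM in Sham plasma. The groups did not overlap, and Sham 2 was again the higher of the Sham libraries. The log2 fold change was −1.81 ± 0.44 (SE, edgeR adjusted p = 0.0115), and −1.09 without Sham 2. The call was lost without AMI 1 (log2 fold change −1.70, adjusted p = 0.104) and without AMI 2 (−1.90, 0.0612), and held in the other 13 of 15 alternatives (adjusted p over all 15 from 3.63e-12 to 0.104).

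The shared 3p entry and miR-214 were lower in both AMI libraries without passing the test. miR-199a/b-3p, the most abundant of the miR-199 and miR-214 entries in every library, was at 4719 and 7911 CPM in AMI plasma and at 12120 and 14719 CPM in Sham plasma. Its log2 fold change was −1.09 (95% confidence interval −1.96 to −0.22, adjusted p = 0.0600 from edgeR), and it passed in 10 of 15 alternatives (adjusted p from 0.00149 to 0.602). miR-214-3p, the guide arm of the second Dnm3os hairpin, was at 97.1 and 83.7 CPM in AMI plasma and at 148 and 215 CPM in Sham plasma.

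The level of miR-214-3p in AMI plasma was 0.499 of that in Sham plasma (95% confidence interval of the log2 fold change −1.84 to −0.17, edgeR adjusted p = 0.0682), passing in 5 of 15 alternatives (adjusted p from 0.000493 to 0.485). Its other arm, miR-214-5p, was at 18.1 and 18.4 CPM in AMI plasma and at 24.4 and 45.5 CPM in Sham plasma. Its log2 fold change, −0.94 (−1.80 to −0.08, adjusted p = 0.0992, and 0.000750 to 0.444 over 15 alternatives), was close to that of miR-214-3p. For both of these entries Sham 2 was the highest of the 4 libraries.

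Both arms of miR-145a rose in AMI plasma. miR-145a-5p, which in smooth muscle favours the contractile state and is the main arm, was at 5211 and 4429 CPM in AMI plasma and at 1942 and 1170 CPM in Sham plasma. Each AMI library was thus above each Sham library, and the log2 fold change was 1.63 ± 0.39 (SE, edgeR adjusted p = 0.0106), or 3.10-fold. The adjusted p was 0.101 without AMI 1 and 0.0522 without AMI 2, and the call held in the other 13 of 15 alternatives (from 7.47e-07 to 0.101 over all 15).

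miR-145a-3p, the minor arm, was at 165 and 209 CPM in AMI plasma and at 99.5 and 51.9 CPM in Sham plasma. The log2 fold change was 1.30 ± 0.42 (SE, edgeR adjusted p = 0.0389), or 2.47-fold. Its call held in 11 of 15 alternatives (adjusted p from 4.75e-06 to 0.299) and was lost without AMI 1 (0.131), without AMI 2 (0.299), with the replicate number as a block (0.0612) and when libraries were scaled by size alone (0.0623). miR-145b, at 18.2 and 15.1 CPM in AMI plasma and at 4.51 and 3.46 CPM in Sham plasma, rose by 2.05 ± 0.39 on the log2 scale (SE, edgeR adjusted p = 0.00346), and its call held in all 15 alternatives (adjusted p from 1.14e-05 to 0.0183).

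The UMIs of miR-145b were 0.00349 and 0.00342 of those of miR-145a-5p in AMI plasma and 0.00232 and 0.00296 in Sham plasma. It is nearly the same molecule as miR-145a-5p, the sources used here do not say how reads were assigned to one or the other, and its rise as a separate molecule is uncertain. The same holds for the split of reads between miR-199a-5p and miR-199b-5p, which are also near copies.

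miR-143-3p, the partner of miR-145a on the same transcript and the most abundant of its cluster, was not higher in both AMI libraries. It was at 6486 and 9103 CPM in AMI plasma and at 14670 and 5103 CPM in Sham plasma. Sham 1 was the highest and Sham 2 the lowest of the 4 libraries, with both AMI libraries between them. The log2 fold change was −0.34 (95% confidence interval −1.40 to 0.71, edgeR adjusted p = 0.653, and 0.0250 to 0.971 over 15 alternatives). Its direction rested on the Sham libraries, with 0.61 without Sham 1 (adjusted p = 0.181) and −0.94 without Sham 2 (0.0250).

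The minor arm miR-143-5p was at 230 and 212 CPM in AMI plasma and at 129 and 39.8 CPM in Sham plasma, higher in both AMI libraries. Its log2 fold change was 1.39 (0.28 to 2.49, adjusted p = 0.0598), and it passed in 8 of 15 alternatives (adjusted p from 1.53e-09 to 0.181). It was 2.47 without Sham 1 and 0.74 without Sham 2.

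Ratios of UMIs within a library, which need no scaling between libraries, set the arms and the clusters side by side. With 2 libraries against 2, the exact two-sided permutation test cannot give a p below 0.333. Of the 11 ratios computed, 5 were added after values had been seen, and the 7 that separated the groups all had an exact permutation p of 0.333 (0.524 adjusted over the 11), so these p-values cannot pass a threshold. Separation was common in these data. Of the 194 hairpins with both arms tested and no count of 0, 64.4% had arm ratios that did not overlap between the groups.

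For the arm test the shared miR-199a/b-3p entry was set against miR-199a-5p, and of the 4 pairs of arms so formed miR-143 had the largest change. The same entry over miR-199b-5p, given further on, changed by more (2.39). miR-143-3p was 28.3 and 42.8 times as abundant as miR-143-5p in AMI plasma, and 114 and 128 times as abundant in Sham plasma. The AMI ratios were both lower, by −1.79 on the log2 scale (groups with SDs of 0.42 in AMI and 0.12 in Sham, n = 2 each, exact permutation p = 0.333), and without any one library the change was −2.10 to −1.49. A test of arm use in edgeR (diffSpliceDGE, chosen after the ratios had been seen) covered all 201 hairpins with both arms tested and called miR-143 (adjusted p = 0.0295, 0.137 without AMI 1, 5.44e-05 to 0.137 over 7 alternatives). The same test called 27.9% of the 201 hairpins, and 33 of the 194 hairpins without a count of 0 (miR-143 among them) had a change of that size or more, so a shift between arms was not particular to miR-143.

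For the other 3 hairpins the arm ratios of the groups overlapped. miR-145a-5p was 31.7 and 21.2 times as abundant as miR-145a-3p in AMI and 19.5 and 22.6 times in Sham plasma (change 0.30, adjusted p = 0.624 in the same edgeR test of arms). For miR-214 the 3p arm was 5.38 and 4.56 times the 5p arm in AMI and 6.07 and 4.72 times in Sham plasma (change −0.11, adjusted p = 0.939). miR-199a/b-3p was 13.9 and 20.7 times miR-199a-5p in AMI and 16.1 and 8.28 times in Sham plasma (change 0.56, adjusted p = 0.245, but 0.0179 without Sham 1). Thus the groups did not overlap for 1 of the 4 hairpins, against 64.4% of the 194 hairpins.

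**Figure D3:**
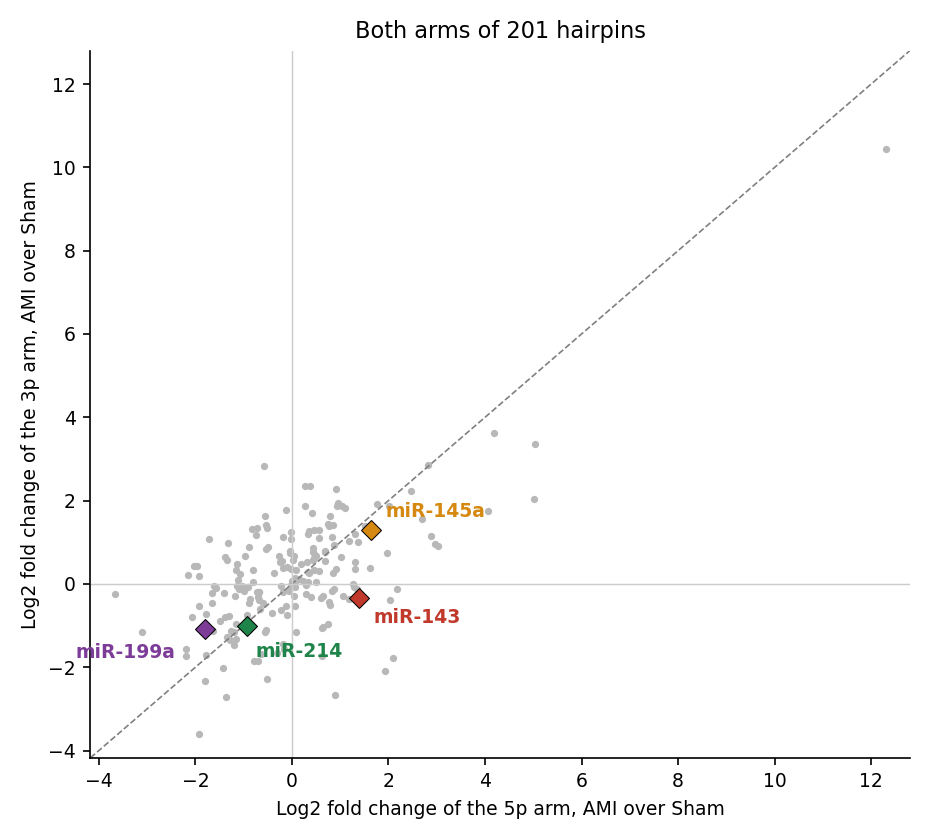
Log2 fold change of the 3p arm against that of the 5p arm (AMI over Sham) for the 201 hairpins with both arms tested, with the diagonal dashed and the 4 hairpins of this group as coloured diamonds. miR-214 and miR-145a lay close to the diagonal, and miR-143 lay below it with its 5p arm at 1.39 and its 3p arm at −0.34.

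Within the miR-199 family the 5p arms of miR-199a and miR-199b changed unequally. miR-199a-5p was 7.52 and 8.86 times as abundant as miR-199b-5p in AMI plasma and 2.89 and 1.82 times in Sham plasma, a change of 1.83 on the log2 scale (SDs of 0.17 in AMI and 0.47 in Sham, n = 2 each, exact permutation p = 0.333). It was 1.50 without Sham 2 and 2.16 without Sham 1. The shared 3p entry was 105 and 183 times as abundant as miR-199b-5p in AMI plasma and 46.4 and 15.1 times in Sham plasma, without overlap. Against both 5p arms together it was at 12.3 and 18.6 times in AMI and 11.9 and 5.34 times in Sham plasma, where AMI 1 and Sham 1 were nearly equal.

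Between the clusters, the mean log2 UMIs of miR-199a-5p, miR-199a/b-3p and miR-214-3p were set against those of miR-143-3p, miR-145a-5p and miR-145a-3p. The ratio was −1.72 and −1.69 on the log2 scale in AMI plasma and −0.36 and 1.39 in Sham plasma. Both AMI libraries were nearly equal and below both Sham libraries, which differed widely from each other. The change was −2.22 (SDs of 0.02 in AMI and 1.24 in Sham, n = 2 each, exact permutation p = 0.333). It was −3.10 without Sham 1, −1.35 without Sham 2, and −1.48 from summed UMIs, in which the abundant miR-199a/b-3p and miR-143-3p weigh most. With miR-214-3p alone, which comes only from Dnm3os, it was −1.94. With the leading arms only (miR-199a/b-3p and miR-214-3p over miR-143-3p and miR-145a-5p), where miR-145a does not count double, it was −1.81.

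Ratios of partners within each cluster were also taken. miR-145a-5p was 0.803 and 0.487 of miR-143-3p in AMI plasma and 0.132 and 0.229 in Sham plasma, a change of 1.84 (exact permutation p = 0.333). The minor arms did not separate in this way, with miR-145a-3p at 0.717 and 0.985 of miR-143-5p in AMI and at 0.771 and 1.30 in Sham plasma (change −0.25, exact permutation p = 0.667). In the Dnm3os cluster miR-199a-5p was 3.49 and 4.57 times miR-214-3p in AMI and 5.09 and 8.29 times in Sham plasma (change −0.70, exact permutation p = 0.333).

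**Figure D4:**
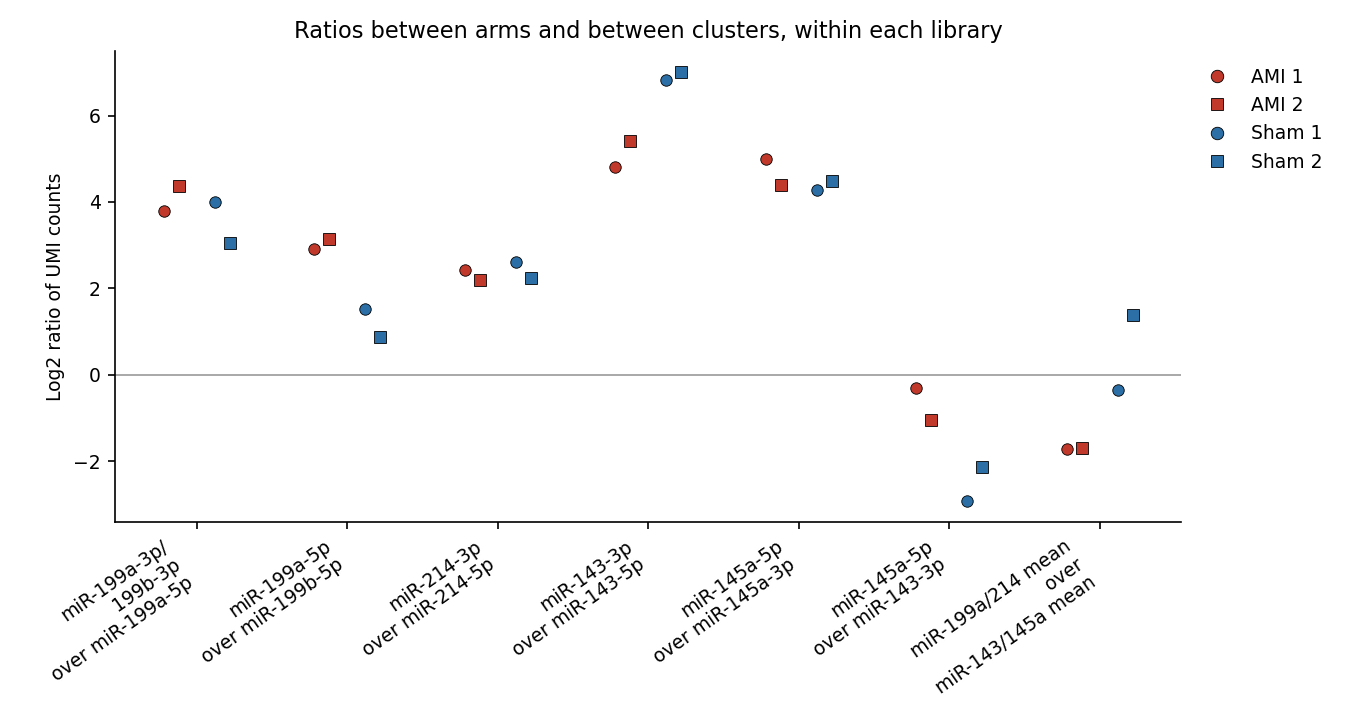
Log2 ratio of UMI counts within AMI 1 and AMI 2 (red) and Sham 1 and Sham 2 (blue) for 6 pairs of entries and, at the right, for the mean of the miR-199a and miR-214 entries over the mean of the miR-143 and miR-145a entries. The AMI points lay apart from the Sham points for miR-199a-5p over miR-199b-5p, both ratios that hold miR-143-3p and the cluster ratio, and the Sham libraries were far apart in the cluster ratio.

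The order of mean levels differed between the groups, though for miR-143-3p and miR-199a/b-3p this rested on Sham 2. In AMI plasma miR-143-3p (7795 ± 1851 CPM, SD, n = 2), miR-199a/b-3p (6315 ± 2257) and miR-145a-5p (4820 ± 553) came first. These neighbours did not differ beyond the spread between libraries, though within each AMI library miR-143-3p was above miR-199a/b-3p. In Sham plasma miR-199a/b-3p (13419 ± 1838) came first, then miR-143-3p (9886 ± 6765) within the same spread, and then miR-145a-5p (1556 ± 546) near miR-199a-5p (1266 ± 724). Within Sham 1 miR-143-3p was above miR-199a/b-3p (14670 against 12120 CPM), as in both AMI libraries. Within Sham 2 miR-143-3p was below it (5103 against 14719 CPM). miR-199b-5p was at 44.1 ± 1.40 CPM in AMI plasma, below miR-214-3p (90.4 ± 9.48), and at 618 ± 505 CPM in Sham plasma, where its spread took in miR-214-3p (181 ± 46.9). Within each Sham library it was nonetheless above miR-214-3p (261 against 148 CPM in Sham 1, 975 against 215 CPM in Sham 2). All of these are single short molecules read end to end, so length does not enter, but capture in the library can differ between miRNAs.

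A further list of 15 miRNAs known from fibroblasts or smooth muscle (and, for many, from other tissues too) moved in both directions. Of the 15, 4 were higher (against 14.8% of all entries) and 3 lower (12.7%) by the test, with a median log2 fold change of 0.04, the same as over all entries tested. miR-490-3p, known from smooth muscle, had 211 and 168 UMIs in AMI and 9 and 44 UMIs in Sham plasma (log2 fold change 2.28, adjusted p = 0.0177 from edgeR). The antifibrotic miR-29b-3p (1.46, adjusted p = 0.0146) and miR-29c-3p (1.87, 0.00504) and the broadly expressed miR-22-3p (1.87, 0.0137) were also higher.

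The 3 members lower in AMI plasma were miR-99a-5p (log2 fold change −1.63, adjusted p = 0.0113 from edgeR), miR-100-5p (−1.50, 0.0134) and the imprinted miR-127-3p (−1.33, 0.0190). miR-21a-5p, which is raised in activated fibroblasts and is also abundant in blood cells, was at 16126 and 23732 CPM in AMI and 34740 and 48985 CPM in Sham plasma (−1.07, adjusted p = 0.0662). Its fold change was thus close to that of miR-199a/b-3p, and neither passed.

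Among 373 other entries with a mean of at least 10 CPM, those nearest in pattern over the 4 libraries were found by Euclidean distance of centred log2 CPM, as a description. Nearest to the mean of the miR-199 and miR-214 entries were miR-152-5p (distance 0.20), let-7k (0.23), miR-369-5p (0.24), let-7c-5p (0.28) and miR-434-5p (0.29), with miR-199a-5p itself at 0.23. let-7c-5p, for example, was at 12885 and 16544 CPM in AMI and at 44746 and 81770 CPM in Sham plasma. The other miR-199 and miR-214 entries lay farther from their mean than these neighbours, with distances of 0.94 for miR-214-3p, 0.95 for miR-199a/b-3p and 1.81 for miR-199b-5p. The farthest, miR-199b-5p, comes from a hairpin outside the Dnm3os cluster. Nearest to the mean of the miR-143 and miR-145a entries were miR-30c-5p (0.13), miR-19a-3p (0.18), miR-16-2-3p (0.23), miR-16-5p (0.24) and miR-3058-5p (0.28). None of its own entries was as near to that mean, with distances of 0.43 for miR-145a-3p, 0.81 for miR-145a-5p and 1.19 for miR-143-3p, so it describes no single member.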

How the data were processed

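Small RNA of mouse plasma was sequenced in 4 libraries (2 AMI, 2 Sham). The deposited values were counts of UMIs and of reads, whole numbers that were not normalized, for 921 miRNA and 94 piRNA entries. bcl2fastq 2.18.0.12 and mm10 are named in the submitters' processing notes, with aligner and counter not given in the sources used here. A line without values was left out. In each of 2 pairs of columns (AMI 1 with Sham 2, AMI 2 with Sham 1) the larger count of an entry was 0 or at least 10, and 150 miRNA entries were at 0 in both libraries of a pair. None of the entries described was affected.

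UMI counts of miRNA entries were fitted in edgeR 4.0.16 (R 4.3.3) with filterByExpr, TMM (factors 0.978, 0.845, 1.01 and 1.20 in AMI 1, AMI 2, Sham 1 and Sham 2) and robust quasi-likelihood tests, two-sided, as was diffSpliceDGE for arms. The processing was tested on simulated data. The alternatives were DESeq2 1.42.0, other scalings and filters, read counts, piRNA entries added, a replicate block and each library left out. A crossed block, a run without entries at 0 in a pair, and the test of arms were added after the data had been seen. The members, lists and tests were chosen with earlier results of these data known. Named were all members, their other arms, miR-145b, and for each mean profile the 5 nearest in pattern with a mean of at least 10 CPM. Intervals of fold changes cover the spread between libraries as edgeR estimates it. Hairpin positions are from GENCODE M21.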

Additional observations from a re-analysis of the deposited data

How the results depend on the processing

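The count of miRNAs that differed between AMI and Sham plasma was 212, and 79 to 305 when 1 library was left out (79 without AMI 1, 95 without AMI 2). Scaling by library size alone gave 86 higher and 147 lower in place of 114 and 98, with the median of all entries at −0.23 in place of 0.04. Scaling by the 6 references of the study put that median at 0.21, with 129 higher and 74 lower. The study judged these references stable by sequencing miRNAs in AMI and Sham plasma. That was apparently the sequencing analysed here, so this scaling is not an independent check. Directions of the 7 entries, the other arms and miR-145b did not change under these scalings. Of 150 fold changes recomputed for these, 1 changed direction, miR-143-3p at 0.61 without Sham 1 (and −0.94 without Sham 2). Calls were lost in 8 and gained in 26, and the cause was not tested.

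With the replicate number as a block 172 miRNAs differed, miR-145a-3p lost its call (adjusted p = 0.0612) and miR-143-5p passed (0.0439). In the labels, same-numbered libraries share only that number, and deviations of same-numbered libraries had a correlation of −0.37 over 772 entries and 0.01 over the 750 without entries at 0 in a column pair. The crossed block, which follows the column pairs and was chosen after seeing the data, gave 249 calls. With 2 libraries per group, leaving out 1 moved some ratios far, and without Sham 2 the change of miR-199a/b-3p was 0.08 in place of 0.56 over miR-199a-5p and 0.34 in place of 0.92 over both 5p arms.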
